A study of Mus musculus with 6 samples.

Results

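The integrated stress response was examined through 30 mouse genes that encode its kinases, its transcription factors and the enzymes and effectors that ATF4 is known to induce. The genes were chosen by name from knowledge of the pathway, at a time when earlier results of these data were known, and tRNA synthetases, serine synthesis enzymes and amino acid transporters were kept apart. All 30 were found among the 21899 gene identifiers of the table, and 28 passed the filter on low counts. RNA-seq was performed on BV2 cells, an immortalized line described as mouse microglia, transduced either with a lentivirus carrying a scrambled shRNA (sh-NC, 3 libraries) or with a lentivirus carrying an shRNA against TonEBP, the product of Nfat5 (sh-TonEBP, 3 libraries). Each group was selected with puromycin, so the controls also carried a lentiviral insert. The labels name no further treatment of these cells.

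In the integrated stress response, 4 kinases sense different insults and phosphorylate the translation initiation factor eIF2. General protein synthesis then slows, while a few mRNAs with upstream reading frames, above all that of ATF4, are translated better. ATF4 pairs with C/EBP proteins on composite DNA elements and turns on genes for amino acid synthesis, redox balance and, under long stress, cell death. Many of its targets therefore report ATF4 activity at the RNA level, although the activity itself is set mostly at translation, which RNA-seq does not measure.

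The libraries summed to between 13621188 and 16140042 counts. Levels are given as CPM, counts scaled to a library of fixed size after TMM normalization. In counting error alone, 0 counts leave room for 0.188 to 0.216 CPM, by library. Nfat5 stood at 618, 772 and 617 CPM in sh-NC and at 244, 291 and 379 CPM in sh-TonEBP, a log2 fold change of -1.14 (± 0.16, standard error; edgeR adjusted p = 0.00016), or -0.42 with a smooth trend of fold change on transcript length and GC content removed. Of 18 genes of homeostatic microglia, 14 stayed under 1 CPM in every library, among them P2ry12, Siglech and C1qa at 0 counts, so the label of the cells was not borne out by these markers. The summed level of 10 fibroblast markers was 472 to 514 CPM in sh-NC and 1568 to 1727 CPM in sh-TonEBP, with 6 of the 10 called higher and Thy1 at 0 counts throughout. Most of that sum was Col3a1, which averaged 342 CPM in sh-NC and 1372 CPM in sh-TonEBP, and of the 6 calls Col1a1 and Dcn passed the filter on low counts through sh-TonEBP alone, where they were high. The summed level of 10 epithelial markers was 627 to 762 CPM in sh-NC and 1217 to 1526 CPM in sh-TonEBP. Most of it was Krt8, the only one of the 10 called higher, and 7 of the 10, Epcam and Cdh1 among them, stayed under 1 CPM in every library. The part of these differences in the results was not tested. In bulk RNA, fewer cells of a kind and less RNA per cell cannot be told apart. Whether replicates were separate cultures is not stated, so the p-values cover the spread between libraries, which may be technical.

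Most of the pathway was lower in sh-TonEBP cells. By edgeR with an adjusted p below 0.05, 16 of the 30 genes fell, 2 rose and 10 missed the threshold, and Vldlr and Stc2 were too low to be tested. Over all 11943 genes tested, 52.5% passed, 26.2% as lower and 26.3% as higher. The median log2 fold change was -0.64 over the 28 tested members and 0.0007 over all genes tested. Fgf21, one of the 16, was the only member that passed the filter through sh-NC alone, where it was high. With the cutoffs the study used (more than 2-fold, raw p below 0.05), 9 members, Fgf21 among them, were lower and 0 were higher. Over all genes tested, 8.53% and 6.38% met the same cutoffs. DESeq2 gave the same numbers of members at the adjusted p, 16 lower and 2 higher, and the same 9 and 0 at those cutoffs.

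**Figure D1:**
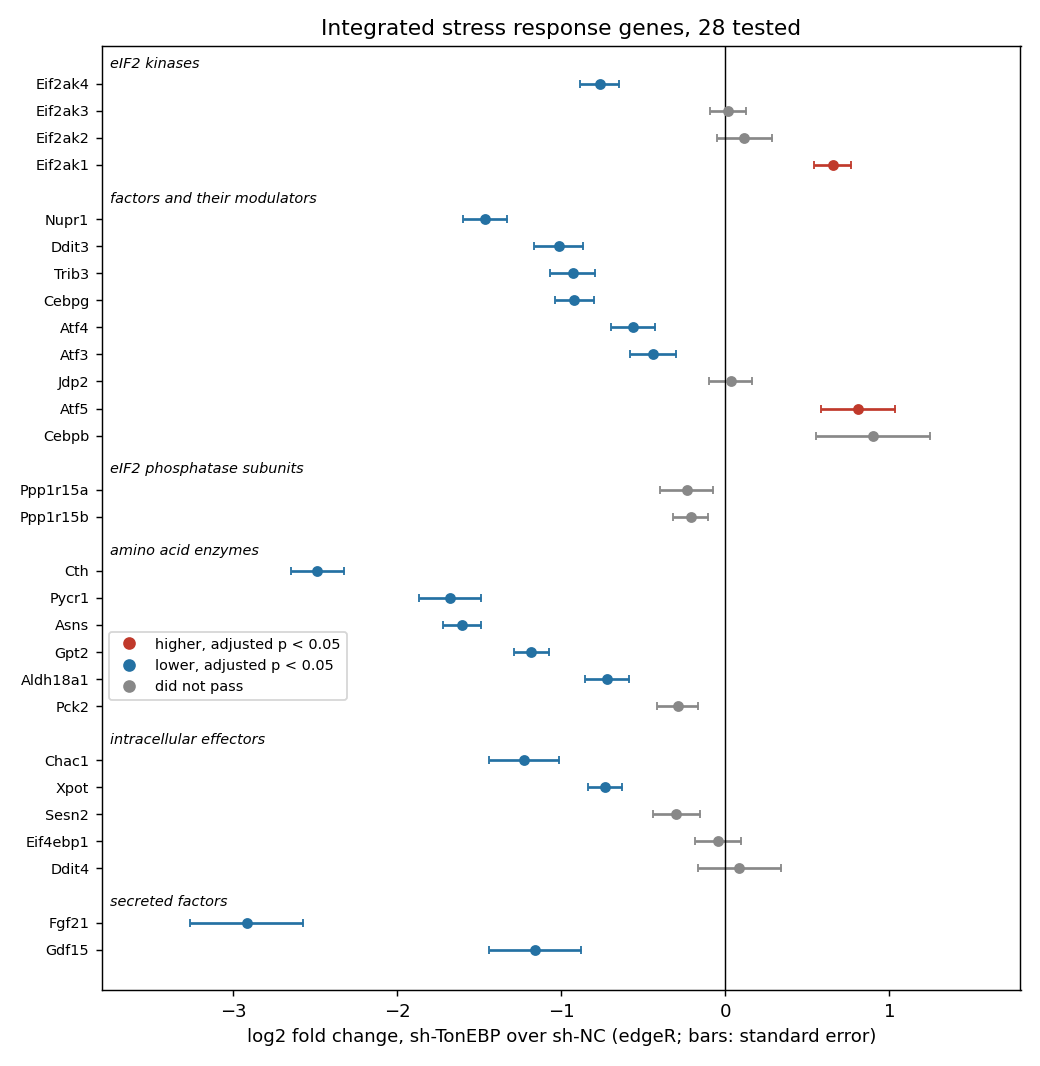
Log2 fold change of the 28 tested members, sh-TonEBP over sh-NC, by role; points are edgeR estimates from 3 against 3 libraries, bars are standard errors, and colors give the call at an adjusted p under 0.05. The points run from -2.92 for Fgf21 to 0.90 for Cebpb, and 16 of the 28 are lower calls.

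A promoter element was looked for first, since ATF4 and C/EBP partners bind a composite site. RefSeq promoter windows of 300 bases (250 before to 50 after the start site, GRCm38.p6) were matched for 27 members and searched on both strands for TGATGNAA, the core of the C/EBP-ATF response element. The core lay in the window of 10 of the 27 genes, or 37.0%, against 4.51% of the 27025 genes with a window. Many members were chosen as genes that ATF4 is known to induce. A share above that of all genes was thus built into the list and is no result of these data. Windows of 9 of the 10 genes with the core are printed so that the shared core can be compared between genes that fell and genes that did not. Each is written 5′ to 3′ on the strand where the core reads TGATGNAA, with the core in capitals.
Asns, chr6:7693214-7693243, minus strand, core at -23: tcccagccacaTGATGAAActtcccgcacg
Pycr1, chr11:120643833-120643862, minus strand, core at -103: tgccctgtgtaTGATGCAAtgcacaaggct
Pck2, chr14:55540152-55540181, minus strand, core at -103: ctgtaagatacTGATGTAActttgaaggct
Atf3, chr1:191183425-191183454, plus strand, core at -110: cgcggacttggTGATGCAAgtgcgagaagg
Nupr1, chr7:126625562-126625591, plus strand, core at -110: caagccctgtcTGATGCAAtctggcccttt
Jdp2, chr12:85599372-85599401, plus strand, core at -33: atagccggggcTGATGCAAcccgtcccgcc
Chac1, chr2:119351038-119351067, minus strand, core at -193: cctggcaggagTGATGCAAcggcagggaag
Fgf21, chr7:45615611-45615640, plus strand, core at -139: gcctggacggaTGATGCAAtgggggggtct
Vldlr, chr19:27216809-27216838, minus strand, core at -200: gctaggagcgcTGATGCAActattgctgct

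The tenth gene, Trib3, had its match 15 bases after the start site. Positions count from the RefSeq start site to the first base of the match on the gene's own strand, and in Jdp2 and Vldlr the match lay in the window of only some of their start sites. TGATGCAA was the form in 7 of the 9 windows shown, while Asns had TGATGAAA and Pck2 TGATGTAA. Among the 9 tested genes with the core, 7 were lower and 0 were higher, and Jdp2 and Pck2 did not pass. Fgf21, among the 7, passed the filter on low counts through sh-NC alone, where it was high. Among the 16 tested genes whose windows lacked the core, 8 were lower and 2 were higher. Over all genes tested, 26.2% were lower and 26.3% higher. Whether genes with and without the core differ was not tested. The letters TGGAAA, the core of the element that TonEBP binds, were in the windows of 6 of the 27 members, or 22.2%, and of 23.9% of all genes with a window. A match is only a run of letters, and whether any factor was bound there was not measured.

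**Figure D2:**
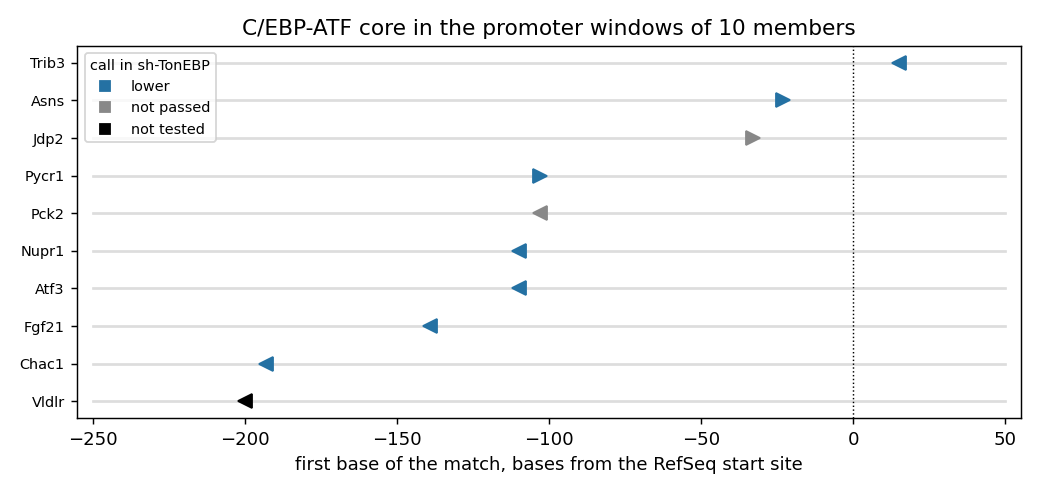
Position of TGATGNAA in the RefSeq promoter windows of 10 members, in bases from the start site; arrows point right where the core lies on the gene's strand and left where it lies on the other, and colors give the call in sh-TonEBP. The matches run from -200 in Vldlr to 15 in Trib3. Vldlr was not tested. Of the 9 tested genes 7 were lower, where 26.2% of all genes tested were lower. Fgf21, among the 7, passed the filter on low counts through sh-NC alone, where it was high.

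Of the 4 kinases, 1 was lower, 1 was higher and 2 did not pass, or 25.0% in each direction, near the shares over all genes tested. Eif2ak4 encodes GCN2, which senses uncharged tRNA when amino acids are scarce. It stood at 74.1, 90.9 and 83.3 CPM in sh-NC and at 44.9, 51.0 and 50.2 CPM in sh-TonEBP, a log2 fold change of -0.76 (± 0.12 SE, adjusted p = 0.00028). The groups did not overlap. Eif2ak1 encodes HRI, which responds to a lack of heme and, with DELE1, to mitochondrial stress. Its level was 36.1, 36.5 and 37.0 CPM in sh-NC and 58.2, 55.1 and 59.3 CPM in sh-TonEBP, a rise of 0.65 on the log2 scale (± 0.11 SE, adjusted p = 0.00048). Its exons overlap those of Aimp2 and Ankrd61 on the other strand, and the strand setting of the counting is unknown, so some of its reads may belong to them. Eif2ak3, which encodes the endoplasmic reticulum kinase PERK, showed 65.4 ± 4.81 CPM in sh-NC and 66.1 ± 1.69 CPM in sh-TonEBP (mean ± SD, n = 3 per group), with a log2 fold change of 0.02 (± 0.11 SE, adjusted p = 0.91). Eif2ak2, which encodes PKR, a sensor of double-stranded RNA that interferon induces, spread widely in sh-TonEBP, at 50.8, 70.1 and 87.1 CPM against 61.3 to 67.5 CPM in sh-NC (adjusted p = 0.57). Per kilobase of transcript, Eif2ak4, Eif2ak2 and Eif2ak3 had similar levels in sh-NC, at 15.6, 14.8 and 14.5 CPM per kilobase, and Eif2ak1 was at 8.45. In sh-TonEBP Eif2ak4 was the lowest of the 4, at 9.19 CPM per kilobase against 13.3 for Eif2ak1.

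Among the transcription factors, Atf4 itself was lower. It stood at 335, 253 and 327 CPM in sh-NC and at 183, 226 and 211 CPM in sh-TonEBP, a log2 fold change of -0.56 (± 0.13 SE, adjusted p = 0.0039). Every sh-TonEBP library lay below every sh-NC library, but sh-NC replicate 2 came close to them. Less the length and GC trend its log2 fold change was -0.93. Ddit3 encodes CHOP, the factor that ATF4 induces in prolonged stress. Its level was 23.7, 21.9 and 28.1 CPM in sh-NC and 12.3, 12.6 and 11.6 CPM in sh-TonEBP, a log2 fold change of -1.02 (± 0.15 SE, adjusted p = 0.00018). A second gene identifier with the same symbol had 0 counts in every library. Exons of Ddit3 overlap those of Mars, a tRNA synthetase gene on the other strand, by 68 bases. Mars averaged 243 CPM in sh-NC and 187 CPM in sh-TonEBP and was itself lower (adjusted p = 0.010), so reads of the overlap cannot be told apart between them. Nupr1, a small nuclear stress protein, showed the largest fall among the factors, from 72.2 ± 9.42 to 26.1 ± 2.05 CPM (mean ± SD, n = 3 per group), or -1.47 on the log2 scale (± 0.13 SE, adjusted p = 8.9e-06).

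Cebpg, which encodes a C/EBP protein that dimerizes with ATF4, stood at 83.6, 82.5 and 92.5 CPM in sh-NC and at 40.3, 49.6 and 46.7 CPM in sh-TonEBP (log2 fold change -0.92, adjusted p = 8.3e-05). Trib3, a pseudokinase that ATF4 and CHOP induce and that restrains them in turn, went from 97.4, 77.3 and 102 CPM to 54.7, 45.0 and 45.4 CPM (log2 fold change -0.93, adjusted p = 0.00017). Both were roughly as far apart between the groups as Ddit3, with no overlap. Atf3, a bZIP repressor induced early in stress, fell less, from 20.2 ± 1.41 to 14.9 ± 0.855 CPM (mean ± SD, n = 3 per group; log2 fold change -0.44, adjusted p = 0.019). Its call was lost without sh-NC replicate 1, sh-NC replicate 3 or sh-TonEBP replicate 2 (adjusted p = 0.082, 0.062 and 0.068).

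Atf5 went the other way. This relative of ATF4, which is likewise translated through upstream reading frames and acts in the response to misfolded mitochondrial proteins, had 12.3, 6.43 and 6.97 CPM in sh-NC and 15.7, 14.3 and 15.2 CPM in sh-TonEBP (log2 fold change 0.81, ± 0.23 SE, adjusted p = 0.0099). The sh-NC libraries were uneven, with replicate 1 nearer to the sh-TonEBP libraries than to its own group. Less the length and GC trend the value for Atf5 was 0.33, and its exons overlap those of Nup62 and Il4i1 on the other strand. Cebpb, which encodes a C/EBP factor of inflammation and stress, was at 35.1, 10.5 and 24.7 CPM in sh-NC and 54.1, 36.3 and 41.3 CPM in sh-TonEBP. The groups did not overlap, yet sh-NC spread more than 3-fold and the difference narrowly missed the test (log2 fold change 0.90, ± 0.35 SE, adjusted p = 0.052). Its call turned on single libraries and settings. The log2 fold change was 0.56 without sh-NC replicate 2 (adjusted p = 0.043), 1.31 without sh-NC replicate 1 (adjusted p = 0.022), 1.03 without sh-TonEBP replicate 2 (adjusted p = 0.038) and 0.72 without sh-TonEBP replicate 1 (adjusted p = 0.26). DESeq2 gave 0.91 (adjusted p = 0.13). Exons of Cebpb overlap those of Tmem189 on the other strand by 312 bases. Jdp2, a bZIP repressor of the AP-1 family, had 51.2 ± 5.95 and 52.3 ± 5.38 CPM (mean ± SD, n = 3 per group; adjusted p = 0.84).

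The subunits that direct protein phosphatase 1 to eIF2 and so end the response did not pass the test. Ppp1r15a, the inducible subunit known as GADD34, had 37.3, 25.7 and 36.9 CPM in sh-NC and 31.0, 25.2 and 28.7 CPM in sh-TonEBP (log2 fold change -0.24, ± 0.16 SE, adjusted p = 0.23). Its groups overlapped because of sh-NC replicate 2, without which the log2 fold change was -0.38 (adjusted p = 0.045). Ppp1r15b, the constitutive subunit CReP, had 187, 167 and 181 CPM in sh-NC and 159, 156 and 147 CPM in sh-TonEBP (log2 fold change -0.21, ± 0.10 SE, adjusted p = 0.11).

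**Figure D3:**
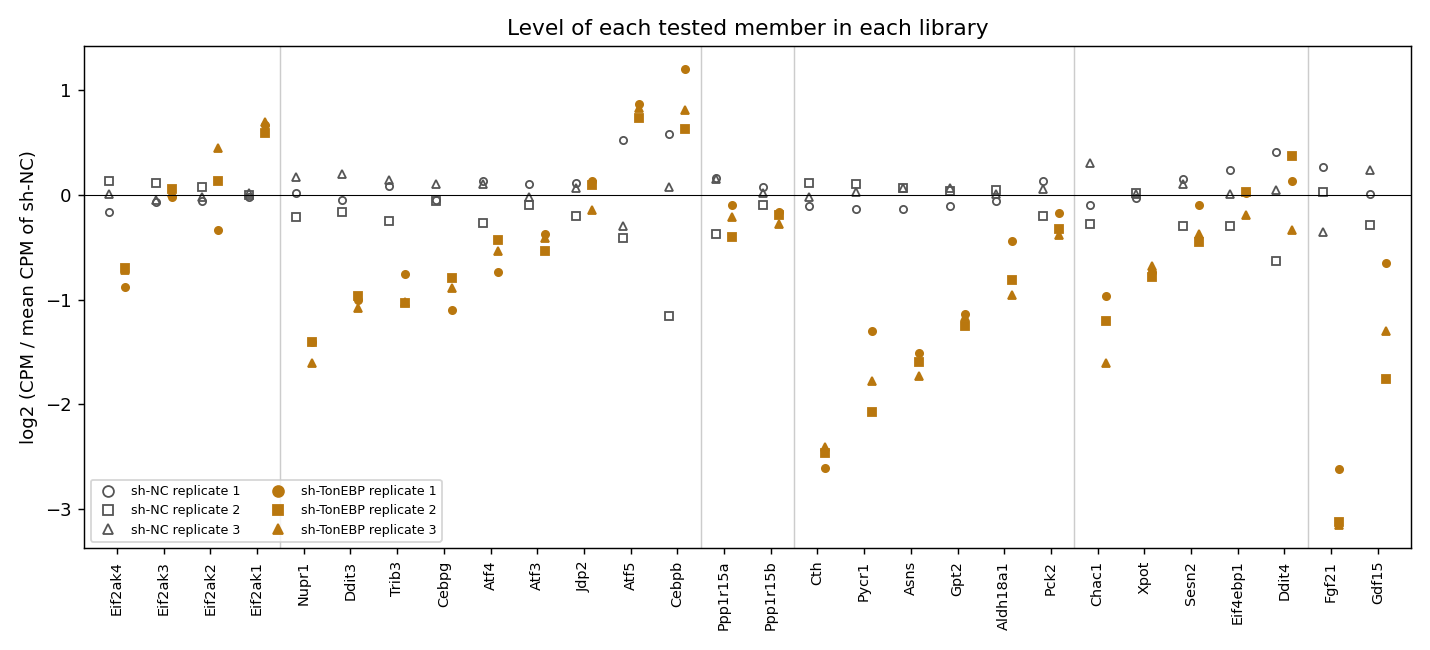
Level of each tested member in each of the 6 libraries, as log2 of its CPM over the mean CPM of sh-NC; open symbols are sh-NC, filled symbols sh-TonEBP, shapes give the replicate number and vertical lines part the roles. The filled symbols lie below all open ones in 17 members and above all of them in 3, and the open square of sh-NC replicate 2 lies low in Cebpb, Ddit4 and Ppp1r15a.

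Of 6 enzymes of amino acid metabolism, 5 fell, or 83.3%, where 26.2% of all genes tested were lower. Pck2 did not pass the test. Cth, cystathionine gamma-lyase, makes cysteine in the last step of transsulfuration. It had 22.3, 26.0 and 23.7 CPM in sh-NC and 3.95, 4.34 and 4.54 CPM in sh-TonEBP, a log2 fold change of -2.49 (± 0.16 SE, adjusted p = 9.9e-07). The libraries of each group lay close together, and the fitted level was 5.61-fold lower in sh-TonEBP. Asns, asparagine synthetase, is a classical ATF4 target, and its promoter holds the core in the form TGATGAAA. Its level was 330.2, 380.2 and 379 CPM in sh-NC and 127, 120.5 and 109.5 CPM in sh-TonEBP, a log2 fold change of -1.61 (± 0.12 SE, adjusted p = 2.1e-06).

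The proline pathway fell at both of its measured steps. Aldh18a1, which turns glutamate into the precursor of proline and ornithine, went from 239, 257 and 249.9 CPM to 183, 142 and 128 CPM (log2 fold change -0.72, adjusted p = 0.00089). Pycr1, the mitochondrial reductase that completes proline synthesis, went from 24.1, 28.4 and 26.9 CPM to 10.7, 6.29 and 7.71 CPM (log2 fold change -1.68, ± 0.19 SE, adjusted p = 3.3e-05). In both genes sh-TonEBP replicate 1 was the least lowered library. Gpt2, a mitochondrial alanine transaminase, went from 189.8 ± 11.6 to 83.5 ± 3.37 CPM (mean ± SD, n = 3 per group; log2 fold change -1.18, adjusted p = 8.8e-06). Pck2, mitochondrial phosphoenolpyruvate carboxykinase, had 85.1, 67.6 and 80.8 CPM in sh-NC and 69.1, 62.1 and 59.6 CPM in sh-TonEBP (log2 fold change -0.29, ± 0.12 SE, adjusted p = 0.063), and it carries the C/EBP-ATF core as Asns and Pycr1 do. The groups overlapped only through sh-NC replicate 2, and without that library the log2 fold change was -0.38 (adjusted p = 0.027).

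Of the 5 tested intracellular effectors, 2 fell, or 40.0%, and 3 did not pass, where 26.2% of all genes tested were lower. Chac1, which breaks down glutathione, had 12.9, 11.4 and 17.1 CPM in sh-NC and 7.08, 5.97 and 4.54 CPM in sh-TonEBP (log2 fold change -1.23, ± 0.21 SE, adjusted p = 0.00057). Xpot, the exportin that carries tRNA out of the nucleus, varied little within groups, at 347, 357 and 355 CPM in sh-NC and 212, 205 and 220.4 CPM in sh-TonEBP (log2 fold change -0.73, ± 0.10 SE, adjusted p = 0.00014). The other effectors act on mTORC1 or on cap-dependent translation, and none of them passed. Sesn2, which restrains mTORC1 when leucine is scarce, had 78.4 ± 12.6 CPM in sh-NC and 63.7 ± 8.43 CPM in sh-TonEBP (mean ± SD, n = 3 per group; log2 fold change -0.30, adjusted p = 0.094), and without sh-NC replicate 2 its log2 fold change was -0.42 (adjusted p = 0.026). Ddit4, a further inhibitor of mTORC1 that hypoxia also induces, ranged from 172 to 355 CPM within sh-NC and from 212 to 347 CPM within sh-TonEBP (adjusted p = 0.79). Eif4ebp1, which holds back the cap-binding protein eIF4E, had 177 ± 32.8 and 172 ± 14.3 CPM (mean ± SD, n = 3 per group; adjusted p = 0.80). Vldlr, a lipoprotein receptor, had 0 counts in every library, so its core element stood in a gene that was not detected here.

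Both tested secreted factors fell, where 26.2% of all genes tested were lower. Fgf21, a hormone that stressed cells release, went from 4.62, 3.91 and 3.01 CPM to 0.627, 0.440 and 0.432 CPM, the largest fall among the members (log2 fold change -2.92, ± 0.34 SE, adjusted p = 4.3e-05). Its sh-TonEBP levels rest on 10, 7 and 6 counts. Fgf21 passed the filter on low counts through sh-NC alone, where it was high, so a fall was favored before the test. Gdf15, a stress hormone of the TGF-beta family, went from 6.41, 5.24 and 7.54 CPM to 4.07, 1.89 and 2.59 CPM (log2 fold change -1.16, ± 0.28 SE, adjusted p = 0.0043), again with sh-TonEBP replicate 1 nearest to sh-NC. Stc2, a secreted glycoprotein, had 0 to 2 counts per library, so a difference was not detectable at this depth.

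Across the 28 tested members the groups did not overlap in 20, with 17 lower and 3 higher, where 62.7% of all genes tested did not overlap, 31.5% lying wholly below and 31.2% wholly above. The library sh-NC replicate 2 was the lowest of its group in 17 of the 28 members, or 60.7%, against 41.1% of all genes tested. Leaving it out gave 19 lower and 3 higher members. In sh-TonEBP, replicate 1 was the highest of its group in 17 of the 28, or 60.7%, against 37.5% of all genes tested, and without it 18 were lower and 2 higher. Fold changes in these data also moved with transcript length and GC content, which together accounted for 0.17 of the variance of log2 fold change over genes, which are not independent of each other. With that trend removed, the median of the members was -0.65 and that of all genes tested 0.02.

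Chosen genes of related families, kept out of the list of members, were also mostly lower. They do not cover each family in full. Of 13 chosen tRNA synthetases that charge cytosolic tRNA, 11 were lower and 0 were higher. Nars stood at -1.10 and Cars at -1.08 on the log2 scale. Of 7 serine and one-carbon enzymes, 6 were lower and 0 higher, with Aldh1l2, a mitochondrial folate dehydrogenase, going from 301 ± 22.5 to 49.0 ± 3.48 CPM (mean ± SD, n = 3 per group) and Psat1 at -1.28. Of 11 amino acid transporters, 7 were lower and 0 higher, with the cystine carrier Slc7a11 going from 14.4 ± 1.33 to 1.31 ± 0.284 CPM and the glutamine carrier Slc1a5 at -0.88. The medians were -0.64, -0.75 and -0.53, and less the length and GC trend -0.64, -0.95 and -0.48. Among all genes tested, 26.2% were lower and 26.3% higher. A broader list of genes commonly given as ATF4 targets was more mixed, with 14 of 29 lower, or 48.3%, and 5 higher, or 17.2%. Its median was -0.30, and -0.13 less that trend. In this list Ero1l, the oxidase that forms disulfide bonds in the endoplasmic reticulum, went from 1916 ± 205 to 514 ± 73.0 CPM and Bcat1, a branched-chain transaminase, fell by 1.45 on the log2 scale. Atf6b, one of the 5 higher genes, is also counted with the other unfolded protein response branches. Of 21 further tested genes named as C/EBP or bZIP factors, 13 were lower and 2 were higher, with Atf7 at -0.72 and Cebpa at 1.55. Cebpz, among the 13 at -0.43, bears the C/EBP name but is no bZIP factor. Nfe2l3, among the 13, passed the filter through sh-NC alone, where it was high.

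The machinery around eIF2 held calls in both directions. Of 11 tested genes for subunits of eIF2, its exchange factor eIF2B and the related factors Eif2a and Eif2d, 5 were lower and 3 were higher. These were 45.5% and 27.3%, against 26.2% and 26.3% over all genes tested. The median of the 11 was -0.10, and 0.03 less the length and GC trend. Eif2s2, the beta subunit of eIF2, averaged 313 CPM in sh-NC and 130.3 CPM in sh-TonEBP (log2 fold change -1.26), while Eif2b4, a subunit of the exchange factor, rose by 0.63. Less that trend the values of Eif2s2 and Eif2b4 were -0.76 and 0.23. Without sh-NC replicate 2, sh-NC replicate 3 or sh-TonEBP replicate 1, only 1 of the 11 genes was higher. Of 15 genes that feed or restrain the kinases and the phosphatase, 4 were lower and 4 were higher, close to the shares over all genes tested. Map3k20, which encodes ZAK, the kinase that senses stalled ribosomes, stood at -1.09. Hspa5, the chaperone BiP that holds PERK inactive, rose by 0.78 on the log2 scale, and Ppp1ca, a catalytic subunit of protein phosphatase 1, by 0.75. Without sh-NC replicate 3 only 2 of them were lower.

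Genes of the other unfolded protein response branches were more often called higher than lower. Of 18 genes for the IRE1 and ATF6 branches and the chaperones they induce, 12 were higher, or 66.7%, and 2 were lower, or 11.1%. The shares over all genes tested were 26.3% higher and 26.2% lower. The median of the 18 was 0.40, and 0.38 less the length and GC trend. Xbp1, the factor that IRE1 splices, went from 64.9 ± 6.54 to 137 ± 13.6 CPM (mean ± SD, n = 3 per group; log2 fold change 1.08), and Creld2, a protein of the endoplasmic reticulum that this response induces, rose by 0.86. The 2 lower genes encode sensors of these branches, Atf6 at -0.95 and Ern1, which encodes IRE1, at -0.61 (adjusted p = 0.0006). Sensors did not all fall, as Atf6b, a relative of Atf6, was among the higher genes at 0.34 (adjusted p = 0.017). Whether the members and these genes differ as groups was not tested.

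**Figure D4:**
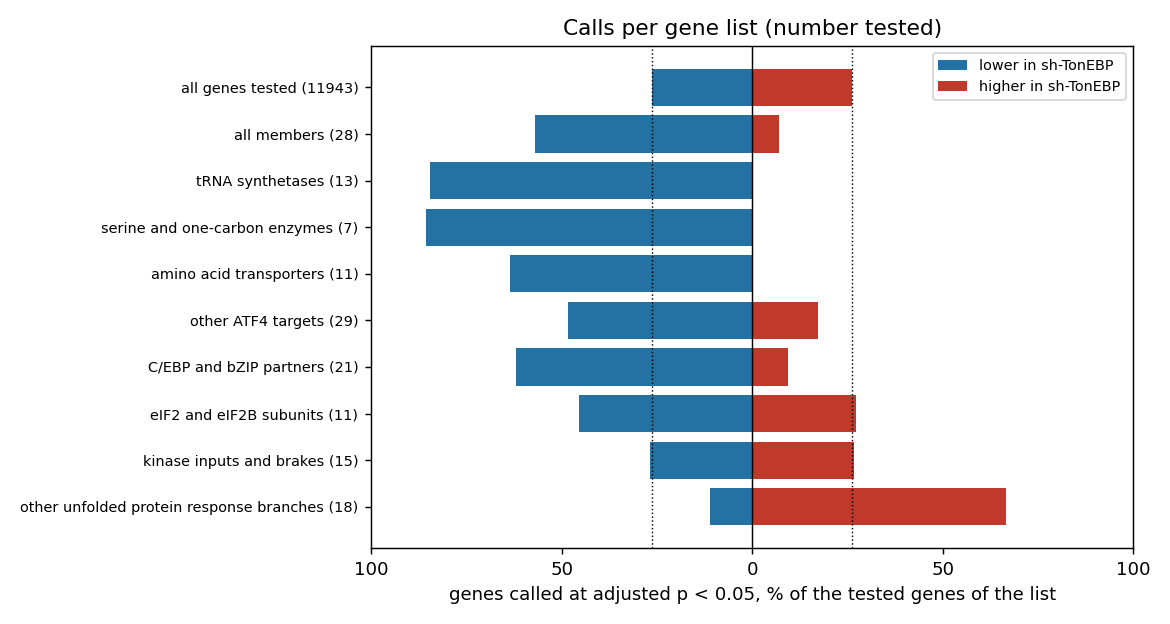
Share of the tested genes of each list called lower (left, blue) or higher (right, red) in sh-TonEBP at an adjusted p under 0.05, with the number tested in brackets; dotted lines mark the shares over all 11943 genes tested, 26.2% and 26.3%. The members reach past the left line, as do all further lists except the other unfolded protein response branches, with eIF2 and eIF2B subunits at 45.5% and the kinase inputs just past it at 26.7%. Past the right line lie those branches at 66.7% and, by little, the eIF2 and eIF2B subunits at 27.3% and the kinase inputs at 26.7%.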

How the data were processed

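Poly(A) RNA of 6 BV2 libraries was sequenced, and the authors deposited raw read counts per gene, with no normalization. The submitters' processing notes name the build GRCm39 and, with no role for each, DESeq 1.30.0, HTSeq 0.9.1, HISAT2 2.0.5 and cutadapt 1.15. Annotation release and strandedness of the counting: not given in the sources used here. The headers of the knockdown columns do not spell out the target, and these columns were assigned to it as the only shRNA beside the scrambled one.

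Of 21899 identifiers, 21795 were matched to symbols through GENCODE M21, which also gave the length and GC content of the longest transcript of each gene, on GRCm38; promoter coordinates are RefSeq's on GRCm38.p6. With edgeR 4.0.16 in R 4.3.3, filterByExpr kept 11943 genes, counts were normalized by TMM, and the quasi-likelihood test with robust dispersion and Benjamini-Hochberg adjustment over all genes tested was applied to the group term. All adjusted p-values come from this fit unless another is named, and each standard error (SE) was derived from the F statistic and its fold change. Replicates differed by more than sampling noise (chi-square per degree of freedom 5.33 or more). The steps were tested on simulated counts.

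The members and lists were chosen with earlier results of these data known. Named genes are the members, Nfat5, up to 4 genes of smallest p per further list, and markers that define microglia. Thy1, Col1a1, Col3a1, Dcn, Krt8, Epcam, Cdh1, Nfe2l3, Cebpz, Mars, Ern1 and Atf6b were named after their values were seen. As alternatives, each library was left out, trends on length and GC content were removed, the replicate number was added as a block, genes were unfiltered or held to a mean of 1 CPM or more, and scaling used RLE or library size only. DESeq2 1.42.0 was run too.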

Additional observations from a re-analysis of the deposited data

How the results depend on the processing

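Of the 18 members past the test, 17 kept their direction and their call under all 12 alternatives with a test, and Atf3 was the exception. The number of lower members ran from 15 to 19 and that of higher members from 2 to 3. At the study's cutoffs, leaving out each library in turn gave 8 to 10 lower and 0 to 2 higher members, and the replicate block gave 1 higher member, Cebpb, in place of 0. The replicate numbers did not pair the libraries (correlations of deviations 0.21, 0.04 and -0.13), and the block gave 16 lower and 3 higher members at the adjusted p, Cebpb being the added one. Leaving out libraries turned the sign of 5 members that had not passed: Eif2ak2 ran from -0.076 to 0.30, Eif2ak3 from -0.017 to 0.086, Jdp2 from -0.053 to 0.12, Ddit4 from -0.14 to 0.34 and Eif4ebp1 from -0.17 to 0.094. The log2 fold change of Nfat5 ran from -1.32 to -0.997 without single libraries and was -0.42 less the trend on length and GC content, and the cause was not tested. The depth limits Vldlr and Stc2, which could not be tested, and Fgf21, which rests on 10 or fewer counts in sh-TonEBP.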
